A study of Mus musculus with 4 samples.

Results

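The guide arms of the miR-23, miR-24 and miR-27 hairpins are 5 of the 1881 mouse miRNAs on each array. They were chosen by name: mmu-miR-23a-3p, mmu-miR-23b-3p, mmu-miR-24-3p, mmu-miR-27a-3p and mmu-miR-27b-3p, written below without the species prefix. RNA came from the exosome fraction of culture medium, small vesicles that an ultracentrifuge pellets, and the medium from 3T3-L1, a preadipocyte line of the mouse that differentiates into adipocytes. Medium was taken at D0, when cells left growth medium, and at D4, D12 and D16 of differentiation. All media held exosome-depleted fetal bovine serum, and growth medium was low-glucose DMEM. The first differentiation medium, used for 2 days, added 1-methyl-3-isobutylxanthine, dexamethasone and insulin to high-glucose DMEM, and the second, used from then on, added insulin alone, so that D4, D12 and D16 share a medium and D0 does not. Each day was read on 1 single-colour (Cy3) array of pooled RNA, with 2 independent experiments in the pool by the methods and 3 by the labels. All 4 arrays lay on 1 slide. No day has a replicate array, no p-value can be given, and precision is limited by the number of arrays. The arrays hold miRNAs alone, so the identity of the cells could not be checked from them.

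A miRNA is a short RNA whose seed, the bases near its 5′ end, pairs with messenger RNAs and lowers their output. The 5 guide arms come from a pair of paralogous clusters, each transcribed as a single precursor that carries a miR-23, a miR-27 and a miR-24 hairpin. miR-27 is known for restraining fat cell differentiation and targets the adipogenic receptor PPARγ, miR-23 targets the glutaminase enzyme of glutamine metabolism, and miR-24 targets genes of the cell cycle.

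In the RefSeq gene table of GRCm38.p6, Mir23a, Mir27a and Mir24-2 lie in this order on chromosome 8 with Zswim4 as the next gene. Mir23b, Mir27b and Mir24-1 lie on chromosome 13 inside the gene Aopep, with Fancc next. A Mir3074 hairpin overlaps each Mir24 hairpin. The mature sequences from RefSeq (GRCm38.p6), found for 4 of the 5 guide arms, are shown because they set which locus a probe can tell apart. They are written 5′ to 3′ with the seed, bases 2 to 8, in capitals.
miR-23a-3p: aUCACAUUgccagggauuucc
miR-27a-3p: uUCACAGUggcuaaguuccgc
miR-27b-3p: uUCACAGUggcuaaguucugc
miR-24-3p: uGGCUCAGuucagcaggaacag
The miR-27 paralogs share their seed with no other miRNA of the table and differ by 1 base, C19U counted from the 5′ end of miR-27a-3p. The seeds of miR-23a-3p and miR-27a-3p differ by 1 base, U7G counted in the same way. miR-24-3p has 1 mature sequence from 2 genes, Mir24-1 on chromosome 13 and Mir24-2 on chromosome 8, so that its signal cannot be assigned to a cluster. Its seed occurs in 4 other miRNAs, miR-5124b, miR-6369, miR-6410 and miR-6413, and none of these was detected on any array. The opposite arms do tell the miR-24 genes apart.
miR-24-1-5p: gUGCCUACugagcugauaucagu
miR-24-2-5p: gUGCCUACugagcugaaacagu
Neither was detected on any array. Whether probes of near-identical paralogs also bind each other's miRNA was not tested.

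The deposited value is the total gene signal in arbitrary units of intensity, the sum over those probes of a miRNA whose signal exceeds 3 times their error. Errors given with ± are those the software derived within an array. Values differ between probes in ways unrelated to abundance, so that changes are compared between miRNAs and levels are not. The D0 array was uneven. Replicate spots of a probe varied there by 21.1% (median coefficient of variation), while the later arrays in order of day gave 7.19%, 7.78% and 8.07%. Spots of the guide arms on the left of the D0 array deviated from the median of their probe by -0.50 in log2, and those on the right by 0.13. Ratios of the guide arms and of the miRNA lists to D0 are therefore also given from the right side of the arrays, while shares and marker signals at D0 are not. No member spot was saturated. The number of detected miRNAs was 329, 426, 406 and 380 from D0 to D16, and 283 were detected on all 4 arrays.

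The chromosome 8 guide arms shared a shape over time. From D0 through D4 and D12 to D16, the signal of miR-23a-3p was 46.7 ± 4.26, 246 ± 21.2, 172 ± 14.8 and 124 ± 10.7. That of miR-27a-3p was 18.03 ± 1.90, 93.9 ± 7.63, 62.0 ± 5.20 and 48.6 ± 4.04 in the same order. miR-24-3p, which both clusters encode, read 27.02 ± 2.30, 159 ± 11.5, 89.7 ± 6.60 and 65.0 ± 4.83. All 3 were lowest at D0 and highest at D4, and D16 was below D4 under all 11 alternatives of scaling and processing described below. The unscaled decline from D12 to D16 turned with scaling. The median signal of the 283 miRNAs detected on all arrays had the same order of days, at 12.1, 30.8, 24.3 and 17.7 from D0 to D16.

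miR-23b-3p did not show the decline from D4 to D12, and miR-27b-3p was too near its limit to tell. In the order of the days, the signal of miR-23b-3p was 4.13 ± 0.918, 22.9 ± 2.56, 24.3 ± 2.58 and 19.2 ± 2.02. miR-27b-3p was not detected at D0 and then read 4.01 ± 1.26, 4.18 ± 1.18 and 3.73 ± 0.954. Both were within their errors between D4 and D12. miR-27b-3p lay just above its detection limit on 3 days, at 3.197, 3.55 and 3.91 times its error, and its later values differ by less than 1 error.

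**Figure D1:**
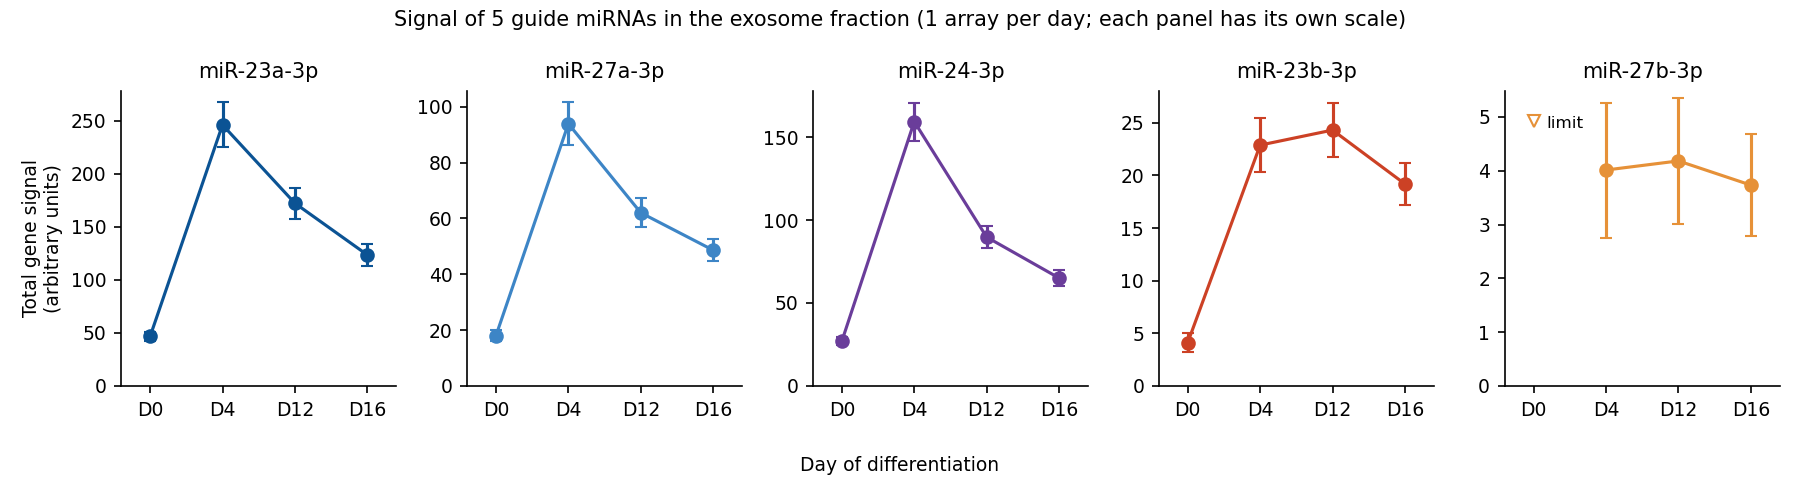
Total gene signal (arbitrary units) of each guide miRNA by day, with 1 array per day and bars for the within-array error. Each panel has its own scale from 0. The open triangle is the D0 limit of 4.92 for miR-27b-3p, summed over both probes, above its later values, and miR-23a-3p, miR-27a-3p and miR-24-3p are highest at D4.

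Each guide arm was read by 2 probes with 15 spots each. Spots of the brighter miR-23b-3p probe ran from 11.3 to 24.2 with a median of 18.5 at D0, from 58.9 to 76.8 with a median of 68.7 at D4, from 66.0 to 82.2 with a median of 76.8 at D12, and from 62.6 to 84.4 with a median of 73.5 at D16. D0 did not overlap the later days, while D4, D12 and D16 overlapped. At D0 6 of the 15 spots were well above background, and on the later days all 15. The dimmer miR-23b-3p probe was not detected at D0, so that the D0 sum holds 1 probe and the later sums 2. Over the probe detected on both days, its ratios to D0 were 4.58 ± 1.15, 4.87 ± 1.22 and 3.77 ± 0.944 in order of day. For miR-27b-3p only the brighter probe was detected after D0, with 0, 1 and 4 of its spots well above background at D4, D12 and D16. One spot of its dimmer, undetected probe read 71.5 at D4, far from the probe's median of 1.34.

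**Figure D2:**
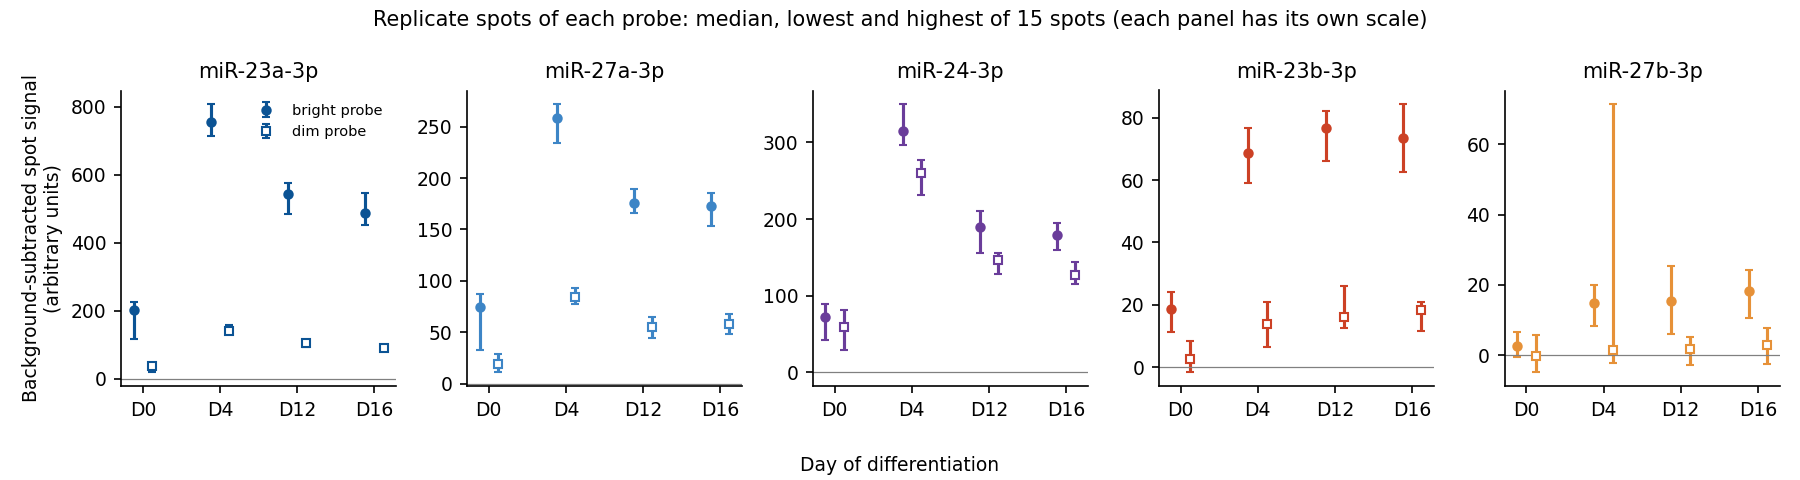
Background-subtracted spot signal (arbitrary units) for both probes of each guide miRNA by day. Symbols mark the median of 15 spots and bars run from the lowest to the highest spot, filled for the brighter probe. The brighter miR-23b-3p probe has overlapping spots at D4, D12 and D16, while that of miR-24-3p is highest at D4.

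The comparison of D12 with D4 does not use the uneven D0 array, and it was added after the values were seen. miR-23a-3p stood at 0.700 ± 0.0851 of its D4 signal, miR-27a-3p at 0.660 ± 0.0771 and miR-24-3p at 0.563 ± 0.0580. miR-23b-3p stood at 1.06 ± 0.164 and miR-27b-3p at 1.04 ± 0.439, both within 1 error of no change. Over the 374 miRNAs detected on both days the median ratio was 0.865, so that miR-23a-3p, miR-27a-3p and miR-24-3p lay below the typical change and miR-23b-3p above it. Their places among all were at percentiles 22.7, 19.8, 17.4 and 78.6 in that order. Relative to the median change of the 283 miRNAs detected on all arrays, 0.843, they were at 0.830 ± 0.101, 0.783 ± 0.0914, 0.668 ± 0.0687 and 1.26 ± 0.194. Of these, miR-23a-3p and miR-23b-3p were within 2 errors of 1. The change of miR-23b-3p was 1.89 ± 0.350 times that of miR-24-3p, 1.61 ± 0.311 times that of miR-27a-3p and 1.52 ± 0.298 times that of miR-23a-3p. On the log scale these 3 lay 3.42, 2.46 and 2.13 within-array errors from 1, and on the scale of the ratio 2.53, 1.955 and 1.74, so that the difference from miR-24-3p alone exceeded 2 errors on both scales. None of the other 7 pairs exceeded 2 errors on either scale. Under the 11 alternatives of scaling and processing, of which the probes detected on both days give the unscaled ratios again, the ratio of miR-23b-3p lay between 1.04 and 1.38, that of miR-23a-3p between 0.697 and 0.906, that of miR-27a-3p between 0.651 and 0.855 and that of miR-24-3p between 0.563 and 0.732. miR-27b-3p ranged from 0.981 to 2.71, and its direction turned under normexp background correction. By probe, the dimmer and the brighter gave 0.713 and 0.697 for miR-23a-3p, 0.631 and 0.670 for miR-27a-3p, 0.547 and 0.576 for miR-24-3p, and 1.06 each for miR-23b-3p, so that the probes of 1 miRNA did not differ beyond their errors. From D12 to D16 all 5 were lower unscaled, between 0.717 and 0.893, where the median of 371 miRNAs was 0.704, so that none fell by more than the arrays as a whole. Under the 6 scalings miR-23b-3p, miR-27a-3p and miR-27b-3p were higher at D16 than at D12 in all 6, miR-23a-3p and miR-24-3p in 3, and after quantile normalization the ratios were 1.12 for miR-23b-3p, 1.05 for miR-27a-3p, 1.76 for miR-27b-3p, 1.03 for miR-23a-3p and 1.08 for miR-24-3p. No direction from D12 to D16 can therefore be given, and 0 of 10 pairs differed beyond 2 errors on either scale. A difference between pools or arrays cannot be told apart from one between days.

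**Figure D3:**
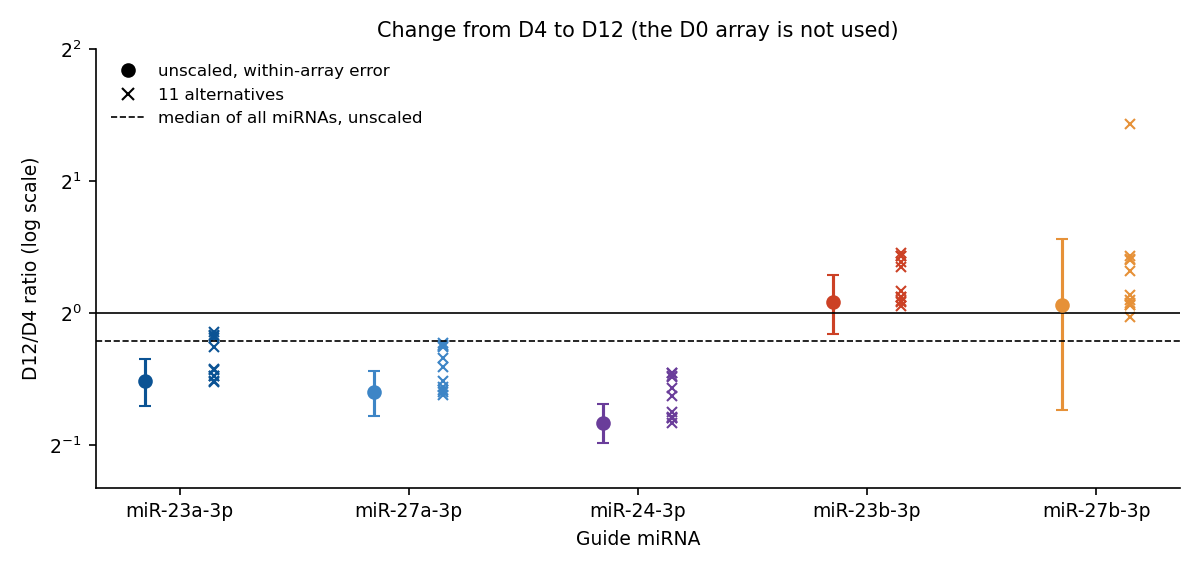
Ratio of D12 to D4 signal (log axis) for each guide miRNA. Circles with bars are unscaled ratios with their within-array error, crosses are the 11 alternatives, the solid line marks no change and the dashed line the median of all miRNAs, 0.865. miR-23b-3p lies above 1 and miR-23a-3p, miR-27a-3p and miR-24-3p below it under each of them.

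Ratios to D0 depend on how the arrays are scaled. Over the 283 miRNAs detected on all arrays, the median ratios to D0 were 2.59, 1.99 and 1.32 in order of day, a shift of 1.37, 1.00 and 0.41 in log2. The signal of the spike-in RNAs was 1.82, 1.72 and 1.27 times that at D0 in the same order. On the right side of the arrays the median over miRNAs detected on both days was 1.615, 1.322 and 1.116. Over the whole arrays it was 2.467, 1.912 and 1.317. The effective spot size that the software used was 0.780 at D4, 0.760 at D12 and 0.6 at D0 and D16. Right-side values are spot means and leave it out, while the unscaled whole-array values include it. Leaving it out alone took the ratios of miR-23a-3p to D0 from 5.27, 3.69 and 2.65 to 4.06, 2.915 and 2.65. Apart from the spot size, the part of each in the shift was not tested. More RNA on an array, brighter labelling and a greater content per vesicle cannot be told apart here. The methods name no scaling between arrays, and the unscaled ratios below should not be read as the authors' procedure or set against ratios made after normalization between arrays, which can be several times smaller, as the quantile values show. Values after quantile normalization, which gives all arrays the same distribution, are given beside them.

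At D4 the unscaled ratio to D0 was 5.27 ± 0.660 for miR-23a-3p, 5.21 ± 0.693 for miR-27a-3p, 5.90 ± 0.657 for miR-24-3p and 5.55 ± 1.38 for miR-23b-3p. All 4 exceeded 2-fold, as did 62.1% of the 317 miRNAs detected on both days. No pair of them differed by more than 0.716 errors on the log scale. After quantile normalization 0 of the 4 exceeded 2-fold, against 11.7% of all, and their ratios were 1.51, 1.73, 1.37 and 1.73 in the same order. Relative to the median change, all 4 were more than 2-fold higher, at 2.04, 2.01, 2.28 and 2.15, against 20.8% of all miRNAs. All 4 values lay within 2 errors of 2. Over the probes detected on both days 3 were, with miR-23b-3p at 1.86, and over the brightest probe 3, with it at 1.905, while 2 were after quantile normalization or normexp background correction.

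At D12 the unscaled ratio was 3.69 ± 0.462 for miR-23a-3p, 3.44 ± 0.463 for miR-27a-3p, 3.32 ± 0.373 for miR-24-3p and 5.89 ± 1.45 for miR-23b-3p. All 4 again exceeded 2-fold, against 47.8% of 297 miRNAs. After quantile normalization miR-23b-3p alone did, at 2.26, against 12.8% of all, and miR-24-3p was at 1.00. Relative to the median change, 1 of the 4 was more than 2-fold higher, miR-23b-3p at 2.96 ± 0.728, against 19.5% of all. With normexp none was, and miR-23b-3p was at 1.30.

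At D16 the unscaled ratio was 2.65 ± 0.333 for miR-23a-3p, 2.70 ± 0.362 for miR-27a-3p, 2.41 ± 0.272 for miR-24-3p and 4.65 ± 1.15 for miR-23b-3p. All 4 exceeded 2-fold, against 31.1% of 289 miRNAs, but less 2 errors 1 did on the scale of the ratio and 3 on the log scale. The 1 was miR-23b-3p, whose ratio over its shared probe, 3.77 ± 0.944, was within 2 errors of 2. On the right side of the arrays 3 of the 4 exceeded 2-fold, against 25.3% of all, and miR-24-3p did not, at 1.89. After quantile normalization 1 of the 4 exceeded 2-fold, miR-23b-3p at 2.55, against 13.8% of all. Relative to the median change 2 did, miR-27a-3p at 2.04 and miR-23b-3p at 3.51, against 22.1%, and miR-23a-3p fell just short at 1.998. Over shared probes 3 did, over the brightest probe or after quantile normalization 1 and with normexp 0.

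miR-27b-3p has only a bound from 1 probe, unscaled, since it was not detected at D0. In order of day, its brighter probe was at least 1.63-fold, at least 1.70-fold and at least 1.52-fold higher, against the D0 limit of 2.46, which is 3 times that probe's error. The errors of these bounds were 0.510, 0.479 and 0.388. Scaling by 1 factor per array, in 5 ways, took the bound to between 0.383 and 0.894 at D4 and between 0.517 and 0.987 at D12, where it then gives no direction. The D16 bound came to between 0.670 and 1.19, above 1 in 3 of the 5. Against the limit summed over both probes, 4.92, no fold can be given even unscaled. With miR-27b-3p at its bound, the median unscaled ratio over the 5 guide arms was 5.27, 3.44 and 2.65, and over the 4 measured on both days 5.41, 3.56 and 2.67.

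**Figure D4:**
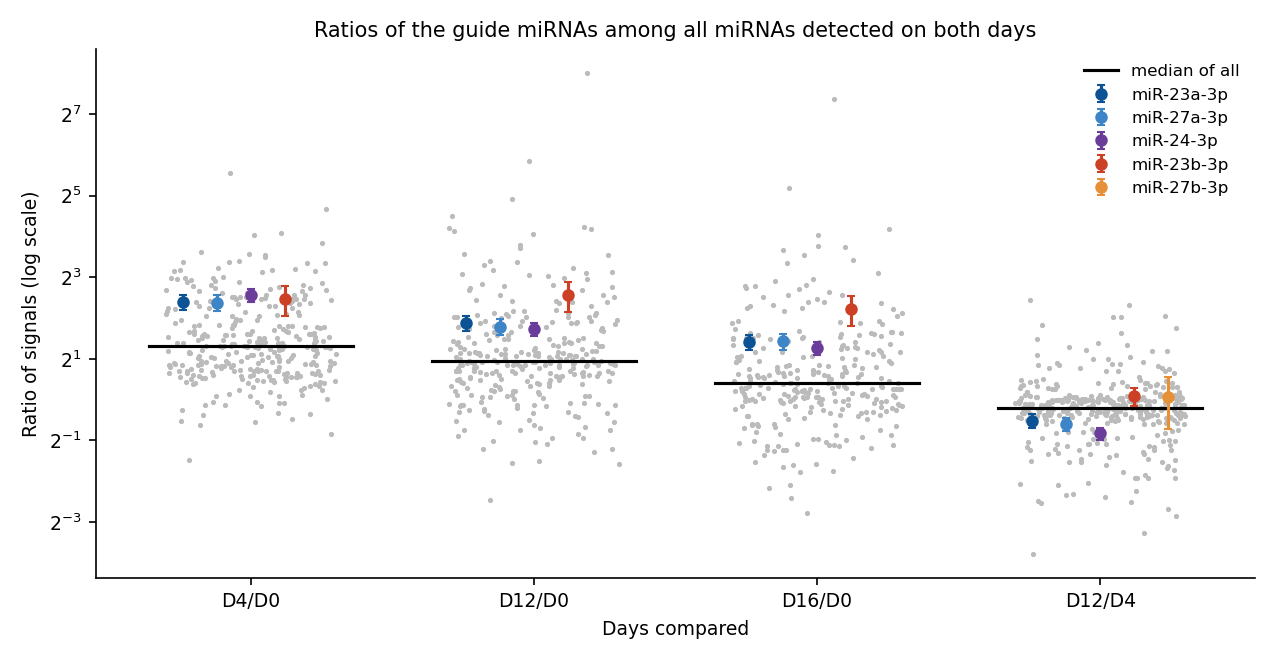
Ratio of signals (log axis) for the guide miRNAs, in colour with within-array errors, and for all miRNAs detected on both days, in grey, unscaled. Horizontal bars are the medians of all, 2.47, 1.91, 1.32 and 0.865 from left to right. The 4 guide miRNAs measured at D0 lie above the medians of the ratios to D0.

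Right-side values come from spot means and leave out the effective spot size. They were below the unscaled ratios, except for miR-23b-3p at D16. In order of day, spot means over the whole arrays gave 4.06, 2.915 and 2.65 for miR-23a-3p. For miR-23b-3p they gave 4.27, 4.65 and 4.65, so that the side alone hardly moved it. On the right side, the median over the 4 was 3.62, 2.38 and 2.28 in order of day, and the ratio of miR-23b-3p 4.23, 4.61 and 4.65. The ratio of miR-23a-3p was 3.63, 2.61 and 2.33 there, and that of miR-27a-3p 3.31, 2.155 and 2.24. That of miR-24-3p was 3.615, 2.10 and 1.89. Relative to the median change of all miRNAs on that side, miR-23b-3p was at 2.56, 3.44 and 4.00. Its right-side values sum 2 probes on the later days and 1 at D0. Over shared probes of the whole arrays it was at 1.86, 2.56 and 2.88 relative to the median change. The 4 were not below 1 at any day under any of the 11 alternatives, but miR-24-3p reached 1.00 at D12 after quantile normalization and 1.01 after scaling by the 75th percentile of the 283 shared miRNAs.

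**Figure D5:**
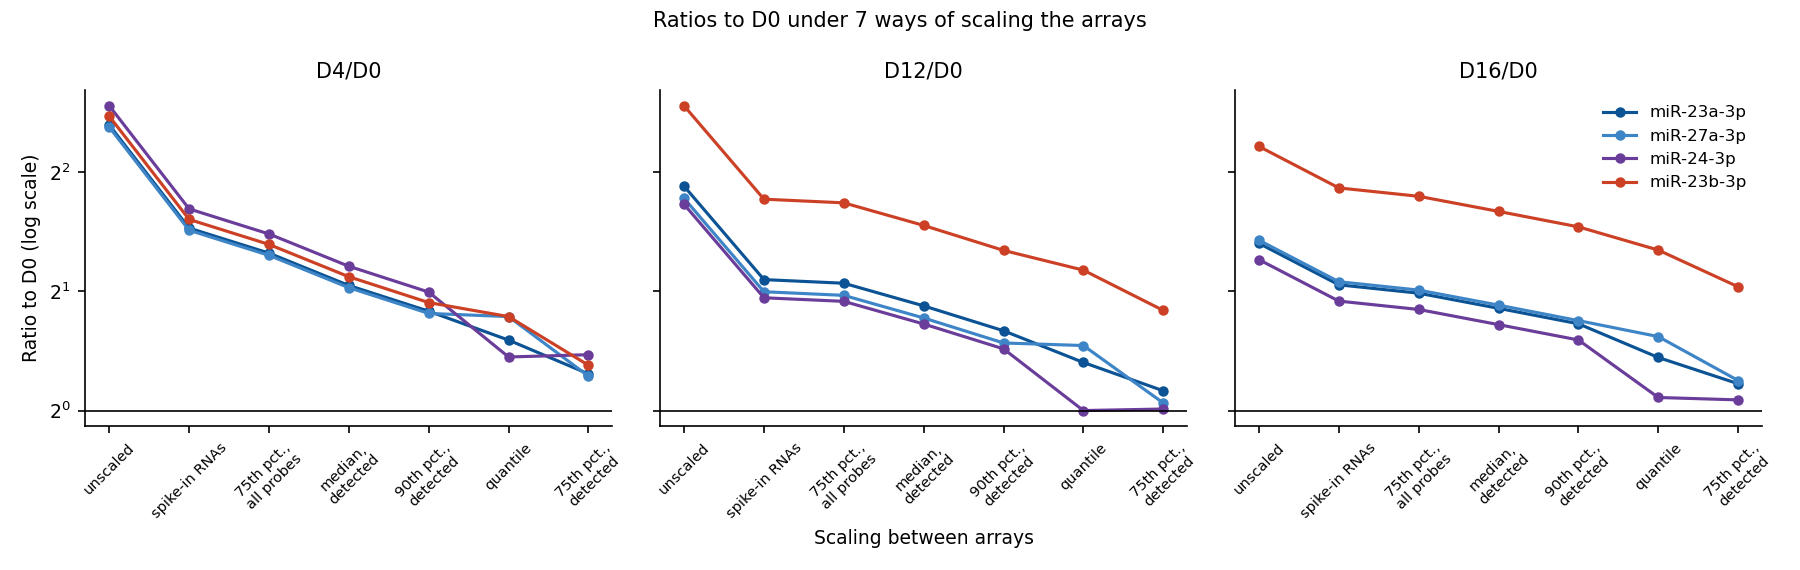
Ratio to D0 (log axis) of the 4 guide miRNAs detected on all arrays, for unscaled signals and 6 ways of scaling. miR-23b-3p lies above the other 3 at D12 and D16 under each scaling, though not beyond 2 errors over shared probes, and at D12 miR-24-3p falls to 1.00 after quantile normalization.

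Set against miR-23a-3p, its paralog miR-23b-3p had changed from D0 by 1.05 ± 0.293, 1.60 ± 0.441 and 1.76 ± 0.486 times as much in order of day. The value at D16 exceeded 2 errors on the log scale, at 2.04, but not on that of the ratio, at 1.56, and these ratios set 2 probes of miR-23b-3p against the 1 summed at D0. Over the probes detected on both days they were 0.868 ± 0.244, 1.32 ± 0.369 and 1.43 ± 0.399, none beyond 2 errors on either scale. miR-27a-3p and miR-23a-3p, neighbours on chromosome 8, did not separate, at 0.987 ± 0.180, 0.932 ± 0.171 and 1.02 ± 0.187. In order of day, 0, 1 and 2 of the 6 pairs differed beyond 2 errors on the log scale and 0 on the scale of the ratio. The others beyond 2 errors on the log scale were miR-23b-3p over miR-24-3p, at 1.77 ± 0.481 at D12 and 1.93 ± 0.523 at D16. Over the probes detected on both days these were 1.47 ± 0.402 and 1.57 ± 0.430. Over those probes 0 of the 6 pairs exceeded 2 errors on the log scale on any day. Ratios to D0 therefore do not separate miR-23b-3p from the others. Larger values for miR-23b-3p over miR-24-3p, given without errors, came from the right side, 2.20 at D12 and 2.46 at D16. Quantile normalization gave 2.26 and 2.36 for this pair. Both settings again set 2 probes of miR-23b-3p against the 1 summed at D0. From D4 to D12, where both days sum the same probes, the 3 pairs above are unchanged. The D0 signal of miR-23b-3p, with an error of 22.2%, sets the width of these errors. With normexp correction the order turned, to 0.673 at D12 and 0.720 at D16 for miR-23b-3p over miR-23a-3p, and the ratio of miR-23b-3p to D0 was 1.41, 1.47 and 1.46 in order of day, the lowest of the 4. That correction adds an offset of 50 to every spot, which is above the D0 spot median of 18.5 of miR-23b-3p.

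As a share of the signal of all detected miRNAs, the 5 guide arms made up 0.754 ± 0.0415%, 1.35 ± 0.0649%, 1.14 ± 0.0558% and 1.19 ± 0.0577% from D0 to D16. The share was lowest at D0 and differed by less than the summed errors between D12 and D16. It is free of any factor common to an array, but sums probes that differ in brightness.

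Profiles were compared by the Euclidean distance between log2 ratios to D0, centred on the median of all, over 4 arrays and 283 miRNAs. Unscaled, miR-27a-3p was the nearest of 282 others to miR-23a-3p, at 0.107, and miR-23a-3p the nearest to miR-27a-3p. miR-27a-3p was also nearest to miR-24-3p, at 0.248. From miR-23b-3p, the nearest other guide arm, miR-23a-3p, came at place 41, over shared probes at 17 and without D0 at 200, and after quantile normalization the nearest was miR-27a-3p at 25, with miR-23a-3p at 45. The other places depend on the measure: by Pearson correlation miR-27a-3p was at place 13 from miR-23a-3p, after quantile normalization at 15 and without D0 at 14. From miR-27a-3p, miR-23a-3p was at 6, 11 and 5 in the same order, and from miR-24-3p, miR-27a-3p at 20, 69 and 20. The place of 1 thus held for Euclidean distances over all 4 arrays, with all probes or with those detected on all arrays, but not in these 3 settings.

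Outside the family, the nearest to miR-23a-3p were miR-467g at 0.163, miR-466m-3p at 0.164 and miR-467a-3p at 0.182. The nearest to miR-27a-3p were miR-6960-3p at 0.197, miR-467d-3p at 0.200 and miR-467a-3p at 0.205. Nearest to miR-24-3p were miR-125a-5p at 0.314, miR-6998-3p at 0.319 and miR-140-3p at 0.324. miR-23b-3p had other neighbours, let-7i-5p at 0.256, miR-22-3p at 0.336 and miR-7070-3p at 0.356. Their ratios of D12 to D4 were 1.23 for let-7i-5p, 1.01 for miR-22-3p and 0.781 for miR-7070-3p.

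The other products of the hairpins were not detected. All 9 opposite arms and miR-3074 forms on the array, miR-23a-5p, miR-23b-5p, miR-24-1-5p, miR-24-2-5p, miR-27a-5p, miR-27b-5p, miR-3074-5p, miR-3074-1-3p and miR-3074-2-3p, were undetected on all 4 arrays. Their limits, 3 times the error summed over their probes, ran from 4.91 to 4.95 at D0, 7.12 to 7.22 at D4, 6.58 to 6.67 at D12 and 5.24 to 5.31 at D16.

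Among miRNAs described as restraining fat cell differentiation, to which both miR-27 forms belong, 13 of the 14 listed were on the array by name. Of these 3 were detected at both D0 and D12, and all 3 exceeded 2-fold unscaled, against 47.8% of all miRNAs, with a median of 3.83 against 1.91. Relative to the median change 1 of the 3 did, against 19.5%. On the right side 2 did, against 26.9% of all, with a median of 2.16, and after quantile normalization 1, with 1.55, against 12.8% of all. miR-27a-3p had the lowest ratio, 3.44, and miR-130a-3p, which also targets PPARγ, the highest, 9.30 ± 1.18. The signal of miR-130a-3p was 15.4, 84.7, 143.2 and 106.8 from D0 to D16. Unlike miR-27a-3p, its highest value was at D12. After D0 another 5, 3 and 2 miRNAs of the list were detected in order of day. Of all 1881 miRNAs, 426, 406 and 380 were detected on those days, and 317, 297 and 289 of these also at D0. Of the 13, 5 were not detected on any array, a share not given for all miRNAs.

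Among 22 miRNAs described as promoting differentiation, 10 were detected at both D0 and D12, and all 10 exceeded 2-fold unscaled, against 47.8% of all, with a median of 11.9. Relative to the median change 9 of the 10 did, against 19.5%. On the right side 9 did, against 26.9%, with a median of 7.36, and after quantile normalization 9, with 4.45, against 12.8%. The highest ratio was that of miR-26b-5p, 22.6 ± 7.40, and the lowest that of miR-21a-5p, 2.47 ± 0.303. The signal of miR-21a-5p was 140, 797, 346 and 268 over the same days. It peaked at D4, as miR-27a-3p did. After D0 another 7, 9 and 9 of this list were detected in order of day, and 2 of the 22 were not detected on any array. The detected counts over all miRNAs, given above, also rose after D0.

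Markers of other cells also moved over the days. Of 11 miRNAs of red blood cells, leukocytes, endothelium and liver, the 4 arrays detected 1, 5, 9 and 8 in order of day. Their summed signal was 9.40, 498, 2674 and 1772, or 0.0740%, 1.27%, 8.64% and 8.10% of the detected signal. The red blood cell miRNA miR-451a, the only marker detected at D0, read 9.40, 443, 2400 and 1559 from D0 to D16. miR-144-3p, which shares its precursor, was at 106.7 at D12, and miR-486a-5p at 17.6 and miR-144-5p at 4.23. The leukocyte miRNAs miR-223-3p, miR-142a-5p and miR-142a-3p read 69.6, 8.63 and 7.36 at D12, the endothelial miR-126a-3p 54.0 and the liver miRNA miR-122-5p 6.26. miR-150-5p and miR-126a-5p were not detected on any array. The summed marker signal was highest at D12. The part of such other sources in the signal of the guide arms was not tested.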

How the data were processed

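The authors deposited intensity values of 4 arrays from Agilent Feature Extraction 11.0 (11.0.1.1 in the file header), background-subtracted per spot and with no scaling between arrays in the files. Per the file headers a total gene signal sums the probes above 3 times their error, and undetected miRNAs are listed at 0.1. This rule gave the detection call in all 7524 cases and the sum, within 0.1%, in all 1541 detected cases. The flags of detection and of spots well above background are those deposited by the authors. How the authors scaled arrays is not given in the sources used here.

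Ratios, errors propagated from the within-array errors, shares, pairs and distances were computed in Python 3.11.15 with numpy 2.4.6 and pandas 2.3.3, and drawn with matplotlib 3.10.9. Normexp (offset 50, limma 3.58.1, R 4.3.3) used median spot signals, since mean spot signals are not in the files, and leaves out the effective spot size, which was 0.780 at D4, 0.760 at D12 and the default of 0.6 at D0 and D16. Spot means and the right side leave it out as well. Ratios use miRNAs detected on both days. Distances of pairs from 1 are counted in errors on the log scale, and where stated also on the scale of the ratio. Alternatives were 6 scalings between arrays (percentiles, median, spike-in RNAs, quantiles), 5 ways of processing spots and probes (probes detected on both days, the brightest probe, spot means, the right side of the array, normexp), other thresholds, denominators and distances. The steps were tested on simulated data. The array header names another assembly than the RefSeq tables, so no coordinates are given.

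Members and lists were chosen with earlier results of these data known. Named miRNAs are the members, their other arms, the miRNAs with the seed of miR-24-3p and the 3 nearest profiles of each member. Also named are the extremes and the brightest of each list, and markers of other cells, detected at D12 or on no array.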

Additional observations from a re-analysis of the deposited data

How the results depend on the processing

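No paired analysis was possible because each day has 1 array. Ratios to D0 depended on the scaling. A factor per array cancels in the relative change between guide arms, so that 5 of the 6 scalings could not move it. The number above 2-fold, of the 4 detected at D0, is given with the median ratio, for D4, D12 and D16 in order. For the 283 miRNAs shared by all arrays, scaling by their 75th percentile gave 0, 0 and 1, with medians of 1.27, 1.08 and 1.18. Their 90th percentile gave 0, 1 and 1, with 1.83, 1.54 and 1.67. Their median gave 4, 1 and 1, with 2.13, 1.78 and 1.83. The 75th percentile of all probes gave 4, 2 and 2, with 2.57, 2.03 and 1.998. Spike-in RNAs gave 4, 2 and 3, with 2.97, 2.07 and 2.10. Quantile normalization gave 0, 1 and 1, with 1.62, 1.39 and 1.45. These settings change the factor between arrays by construction. Of all miRNAs, 11.7%, 12.8% and 13.8% exceeded 2-fold after quantile normalization. The share of all is not given for the other scalings, nor below for normexp or other thresholds. Those counts therefore do not set the guide arms apart from other miRNAs.

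With spot means the median was 4.16 at D4 and 2.82 at D12, and the right side alone gave 4, 4 and 3, with 3.62, 2.38 and 2.28. Of all miRNAs, 36.3%, 26.9% and 25.3% exceeded 2-fold on that side. Normexp gave 3, 1 and 1, with medians of 2.51, 1.75 and 1.69. The 1 was miR-23a-3p, at 2.18 and 2.03, while miR-23b-3p was at 1.47 and 1.46. Relative to all miRNAs the normexp median was 1.55 at D12 and 1.59 at D16. At D16 1 exceeded 3-fold, and 1 exceeded 2-fold less 2 errors, or 3 on the log scale, a scale added after seeing the data like the counts over the median change. In percent of detected signal, the share without the 10 brightest others and miR-451a was 1.51, 2.66, 2.24 and 2.39 from D0 to D16, a smaller denominator by construction, and over the miRNAs detected on all arrays it was 1.195 at D12.

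The ratio of D12 to D4, the profiles without D0, and quantile normalization for pairs, relative medians and profiles were chosen after seeing the data. For D12 against D4, 36 of the 40 pair values that could move stayed within error. Another 20 could not, since spot means change 1 factor per array and both days sum the same probes. The other 4 were pairs with miR-27b-3p under quantile normalization, 0.484 for miR-23b-3p over it, and for miR-27b-3p over miR-24-3p 3.70, over miR-27a-3p 3.203 and over miR-23a-3p 3.08. For ratios to D0, of the 27 that could move 20, 21 and 21 stayed within error in order of day. Under normexp, whose offset exceeds the D0 spot median of miR-23b-3p, the change of miR-23b-3p over that of miR-24-3p was 0.508, 0.816 and 0.864 in order of day, over miR-27a-3p 0.629, 0.867 and 0.867, and over miR-23a-3p 0.483, 0.673 and 0.720. All but the first of these 9, unscaled at 0.941, crossed from above 1 to below it. miR-27a-3p over miR-23a-3p was 0.768 at D4 and 0.830 at D16. Under quantile normalization miR-23b-3p over miR-24-3p was 1.27 at D4 and 2.26 at D12, miR-24-3p over miR-27a-3p 0.791, 0.685 and 0.702, miR-24-3p over miR-23a-3p 0.906 at D4, and miR-27a-3p over miR-23a-3p 1.103 at D12. On the right side, with 2 probes of miR-23b-3p against 1 at D0, miR-23b-3p over miR-24-3p was 2.46 at D16. The cause of the quantile and right-side shifts was not tested. Over shared probes no pair with D0 lay beyond 2 errors on the log scale.

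The ratio of D16 to D12, examined under these alternatives after seeing the data, reversed with scaling. With the 75th and 90th percentiles of the shared miRNAs it was 1.042 in both cases for miR-23a-3p, 1.054 and 1.053 for miR-24-3p, and 1.139 in both cases for miR-27a-3p. Quantile normalization gave 1.029, 1.079 and 1.053 in this order. miR-27a-3p was also at 1.077 with the median, 1.032 with the 75th percentile of all probes, 1.06 with spike-in RNAs and 1.038 on the right side. For the lists, the right side and quantile normalization, and for the bound of miR-27b-3p the 5 scalings by 1 factor per array, were likewise added after seeing the data.

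By Pearson correlation the place of miR-27a-3p from miR-23a-3p was 13, of miR-23a-3p from miR-27a-3p 6, of miR-27a-3p from miR-24-3p 20 and of miR-23a-3p from miR-23b-3p 74. Without D0 these were 14, 5, 20 and 200, and under quantile normalization the first 3 were 15, 11 and 69. With probes detected on all arrays the last was 17. Signal near background limits miR-27b-3p on every day and miR-23b-3p at D0, where 6 of the 15 spots of its brighter probe were well above background.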
